A study of Bos taurus with 40 samples.

Results

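The endometrium of the uterine horn on the same side as the corpus luteum (ipsilateral) was compared with that of the opposite horn (contralateral) on day 13, in 10 of the 40 RNA-sequencing libraries of a study of cattle. The libraries were taken by the day and horn in their labels: 5 were ipsilateral and 5 contralateral. The animals of the series were synchronized heifers (*Bos taurus*, breed not stated in the labels), and both horns were collected at slaughter on 1 of 4 days after estrus, with 5 heifers a day. No treatment was named for either group. The labels call the time a day of pregnancy, and they do not say whether an embryo was present in these uteri. Each library came from a homogenate of endometrium, so every value is an average over epithelium, stroma, vessels and immune cells. In such bulk samples fewer cells of a type and less RNA per cell cannot be told apart. Each title carries a tag (4-1314, 5-140, 5-167, 6-203 and 8-275) that occurs once in each horn. The question named by the series is whether the 2 horns differ in a way that bears on growth of the conceptus.

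The corpus luteum is the progesterone-secreting gland that forms on the ovary after ovulation. Progesterone reaches the uterus through the general circulation and also by local exchange between the vessels of an ovary and of the horn on its side. Under progesterone the endometrium loses its own progesterone receptor from the epithelium and secretes the fluid that feeds the conceptus, which in cattle elongates around this time and signals its presence with interferon tau.

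Depth was 27.03 to 31.86 M reads (1 M is 1000000) in genes in the ipsilateral libraries and 31.01 to 35.80 M reads in the contralateral libraries. MicroRNA genes took 110.5 to 140.5 of every 1000000 reads in the ipsilateral libraries and 91.97 to 108.6 in the contralateral libraries, with no overlap. Of 6 library measures compared by an exact two-sided permutation test over all ways to split the 10 libraries, this 1 passed after Benjamini-Hochberg adjustment (p = 0.00794, the smallest that 5 against 5 allows, adjusted p = 0.0476). Polyadenylated RNA was sequenced, so reads in microRNA and tRNA genes are not a measure of the mature small RNAs. The adjusted p of depth was 0.0714, with means of 29.2 ± 2.23 and 34.1 ± 2.12 M reads (SD, n = 5, exact permutation test). The mitochondrial row took 0.490 ± 0.030% of reads ipsilaterally and 0.359 ± 0.133% contralaterally (SD, n = 5), and contralateral 5-140, at 0.578%, stood above all others. Without that library the exact permutation test passed for depth, tRNA genes and the mitochondrial share (adjusted p = 0.0238 each) and for the share of the 10 most abundant genes (adjusted p = 0.0286). Markers of endometrium were present: all 25 epithelial and all 18 stromal fibroblast markers passed the filter on low counts. The ovarian genes CYP19A1 and FSHR had no reads, so no ovarian carry-over was detectable from these 2. CYP11A1, of the same list of mesothelium and ovary markers, had some reads but did not pass the filter. The other 8 of the 11 markers passed it, and ovarian carry-over was not tested further.

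**Figure D1:**
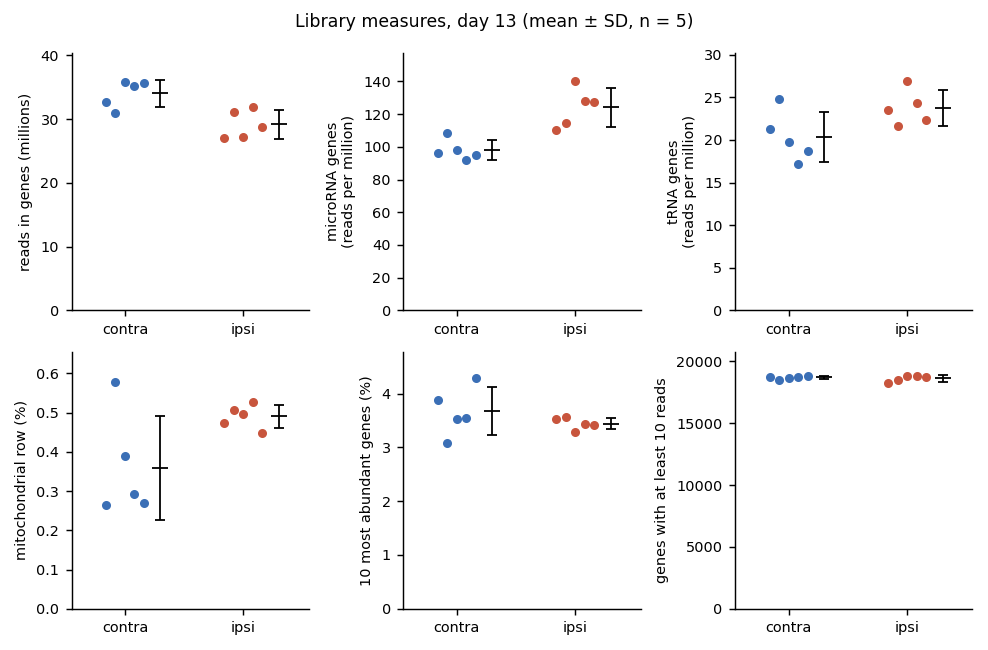
The 6 library measures on day 13, by horn: contralateral libraries in blue and ipsilateral libraries in red, 1 point a library, with the mean and SD (n = 5) beside them. All axes start at 0; only the microRNA panel shows separate ranges, 110.5 to 140.5 against 91.97 to 108.6.

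Of 18683 genes tested with edgeR's quasi-likelihood test, 742 (3.97%) passed at an adjusted p below 0.05: 615 (3.29%) were higher in the ipsilateral horn and 127 (0.68%) were lower. Over all genes tested 8814 estimates were above 0 and 9869 below 0. The median size among the 742 called genes was 0.50 on the log2 scale (1.41-fold), and 11 (0.0589%) were at least 2-fold higher, while 0 were at least 2-fold lower. Genes higher ipsilaterally included members of the lists of splicing factors, centrosome proteins, chromosome structure proteins and chromatin proteins, which together hold a small part of the 615. Genes lower ipsilaterally included SREBF2 of sterol synthesis, KRT19 of epithelium and PSAP of the lysosome. With the tag as a replicate block in the model the same test passed 388 genes (2.08%), 366 higher (1.96%) and 22 lower (0.118%); whether a tag marks the same heifer in both horns is not known, and most libraries correlated best with a library of another tag. Irrespective of any test, CPM ranges of the 2 horns did not overlap for 893 genes (4.78%) that were higher and 475 (2.54%) that were lower ipsilaterally. Adding log2 depth as a covariate left 0 genes (1469 at an unadjusted p below 0.05, lowest adjusted p 0.174), and all 615 higher genes kept a positive estimate, with a median of 0.38 in place of 0.53. When the joint share of small-RNA genes (microRNA plus tRNA) was the covariate, the count was also 0 (2213 at an unadjusted p below 0.05), and the median of the 615 was 0.49.

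The calls rested on several libraries. Without contralateral 6-203 the test passed 272 genes, 263 of them higher. The count was 377 without contralateral 8-275, 462 without contralateral 5-167, 369 without ipsilateral 4-1314 and 358 without ipsilateral 8-275. In every one of the 10 fits that left out a library, 256 of the higher genes and 7 of the lower genes passed. Depth, microRNA share and horn move together in these libraries, and the part of depth or RNA composition in any of the differences below was not tested beyond these covariate fits.

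Of the gene lists compared here, the splicing factors held the most calls. Splicing removes introns from the primary transcript; SR proteins and the factors that partner with them mark the exons and guide the spliceosome. Of 40 splicing factors tested, 28 were higher in the ipsilateral horn and 0 were lower, beside 3.29% and 0.68% of all genes tested, and the median difference of the list was 0.50 against -0.02 over all genes. The mean log2 deviation of the list lay between 0.19 and 0.28 in the 5 ipsilateral libraries and between -0.32 and -0.16 in the contralateral ones. The count stayed between 20 and 26 when each library was left out in turn, beside 1.39 to 3.48% of all genes, and it was 21 with the tag block, beside 1.96%. With depth as a covariate 0 of the 40 passed, and the median was 0.40.

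PPIG, a nuclear cyclophilin with an SR-like tail that interacts with RNA polymerase II, stood at 129.0, 103.1, 116.4, 111.9 and 116.4 counts per 1000000 counts (CPM, scaled by the trimmed mean of M-values) in the ipsilateral libraries, in the order of the tags above. In the contralateral libraries it stood at 58.34, 60.78, 57.25, 52.28 and 47.22 CPM. The lowest ipsilateral library thus held far more PPIG than the highest contralateral one. The ratio was 2.09-fold, a log2 difference of 1.06 ± 0.09 (SE, adjusted p = 0.000888 with edgeR's quasi-likelihood test).

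GCFC2, a factor associated with the late spliceosome, was at 39.55, 41.11, 53.75, 46.27 and 47.06 CPM ipsilaterally. Its contralateral levels were 23.33, 27.58, 20.65, 20.78 and 21.04 CPM, again below every ipsilateral library. The log2 difference was 1.01 ± 0.11 (SE, adjusted p = 0.00165, edgeR). PNISR, an SR-rich protein of nuclear speckles, ranged from 383.3 to 433.3 against 202.2 to 268.1 CPM, a difference of 0.80 ± 0.08 (SE). RBM41, an RNA-binding protein, ranged from 17.39 to 27.68 against 10.15 to 14.47 CPM (0.94 ± 0.15, SE). The ranges of all 4 genes were separate. All 4 passed without each library, with 6 other tests, scalings, filters, priors and sample sets, and with the tag block. In the 2 covariate fits 0 genes passed.

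Not all splicing factors followed. The canonical SR proteins SRSF3 and SRSF2 had differences of 0.03 and 0.12 on the log2 scale and were not called, and the large speckle proteins SRRM2 and SON had -0.04 and 0.23. SRSF1 and SRSF6 were called with small differences of 0.31 and 0.30. The kinases CLK1 and CLK4, which phosphorylate SR proteins, were higher by 0.51 and 0.47. SF3B1, a core component of the U2 particle, was higher by 0.42.

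**Figure D2:**
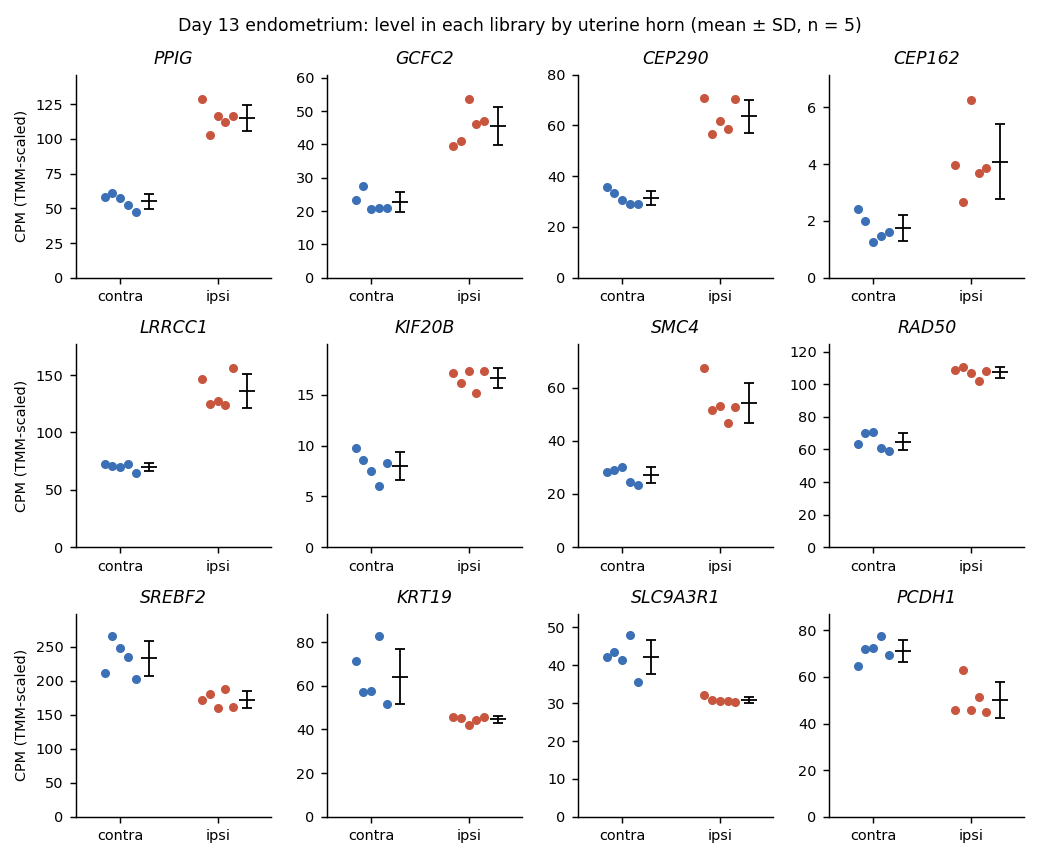
Levels of 12 genes in each day 13 library (TMM-scaled CPM, axes from 0), contralateral in blue and ipsilateral in red, with mean and SD (n = 5). The horns occupy separate ranges in all 12 panels; the first 8 genes are higher ipsilaterally and SREBF2, KRT19, SLC9A3R1 and PCDH1 lower.

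Centrosome and basal body genes were the next group. The centrosome organizes microtubules and, as the basal body, anchors the cilium. Of 45 tested, 19 were higher in the ipsilateral horn and 0 lower, beside 3.29% and 0.68% of all genes, with a median of 0.41. The list's mean log2 deviation was 0.11 to 0.26 ipsilaterally and -0.27 to -0.13 contralaterally. The count was 6 without contralateral 6-203 (1.39% of all genes), 10 without contralateral 8-275, 9 without ipsilateral 4-1314 and 9 without ipsilateral 8-275, and it was 9 with the tag block (1.96%). With depth as a covariate 0 passed and the median was 0.23.

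CEP290, which builds the gate between cilium and cell body, was at 70.64, 56.42, 61.68, 58.51 and 70.27 CPM in the ipsilateral horn. It was at 35.58, 33.24, 30.44, 29.13 and 29.08 CPM in the contralateral horn. No ipsilateral library came near the contralateral range. The difference was 2.02-fold, 1.01 ± 0.09 on the log2 scale (SE, adjusted p = 0.000888, edgeR).

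LRRCC1, a centrosomal protein named for its coiled coils, was not in this list and was taken for its large difference. It was at 146.7, 124.5, 127.1, 124.2 and 156.3 CPM ipsilaterally. Its contralateral values were close together, at 72.75, 70.97, 69.99, 72.40 and 64.24 CPM. The log2 difference was 0.95 ± 0.08 (SE, adjusted p = 0.000888, edgeR). CEP135, which helps to assemble the centriole, ranged from 14.84 to 19.76 against 6.33 to 10.6 CPM (0.94 ± 0.16, SE). CEP295 was higher by 0.66 ± 0.10 and CEP83, a component of the distal appendages, by 0.75 ± 0.11 (SE). These 5 genes passed in all the fits that left out a library and with the tag block.

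CEP162, which sits at the distal end of the centriole, showed a difference of 1.23 ± 0.26 (SE) on low levels. It was at 3.967, 2.676, 6.253, 3.703 and 3.851 CPM in the ipsilateral libraries. The contralateral libraries held 2.432, 1.993, 1.254, 1.458 and 1.597 CPM, so that ipsilateral 5-140 lay just above contralateral 4-1314. Its call (adjusted p = 0.0290, edgeR) was lost in 6 of the 10 fits that left out a library, and the adjusted p was 0.103 with the tag block.

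The other centrosome genes were not uniform. PCM1, the scaffold of centriolar satellites, was higher by 0.56, and PLK4 and SASS6, which start centriole duplication, by 0.46 and 0.68. PCNT and CDK5RAP2, scaffolds of the matrix around the centriole, had differences of -0.07 and -0.12 and were not called. Markers of ciliated cells were not called in either direction: 0 of 18 tested passed, beside 3.97% of all genes, and their median was -0.19. Their summed level ranged from 295.4 to 553.4 CPM ipsilaterally and from 247.2 to 873.3 CPM contralaterally, and the ranges overlapped.

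**Figure D3:**
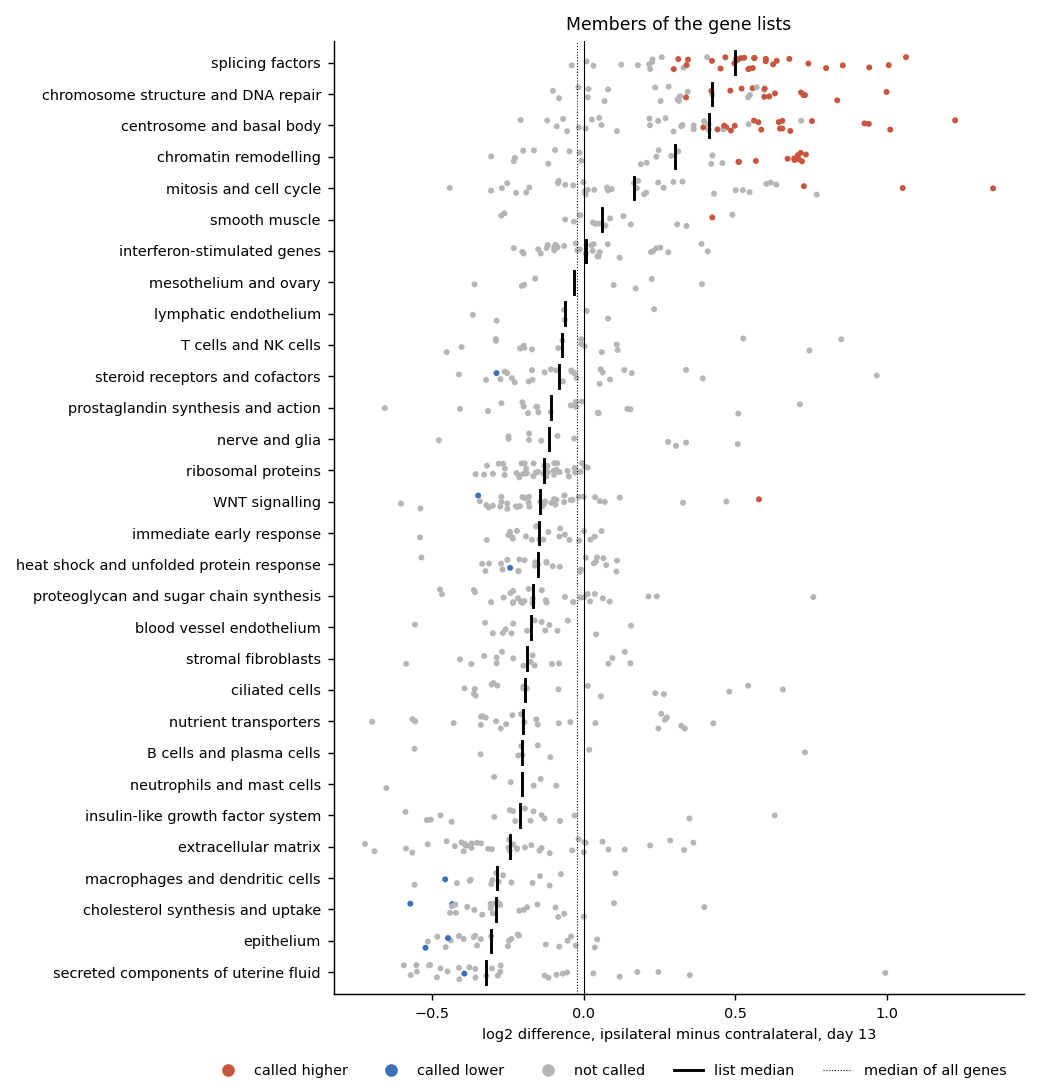
Log2 difference (ipsilateral minus contralateral) of each tested member of the gene lists with at least 5 members; colour marks the call, the black bar the list median and the dotted line the median of all genes. Red points gather in the splicing, chromosome, centrosome and chromatin rows, whose medians lie between 0.30 and 0.50.

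Chromosome structure and DNA repair genes were higher in 14 of 33 cases and lower in 0, beside 3.29% and 0.68% of all genes, with a median of 0.43. The count was 9 without each of ipsilateral 4-1314, ipsilateral 8-275 and contralateral 6-203 (1.39% of all genes in the last), and the median was 0.24 with depth as a covariate, when 0 passed. SMC proteins are the ATPases of condensin, cohesin and related rings that fold and repair chromosomes. SMC4, of condensin, was at 67.21, 51.46, 53.04, 46.82 and 52.52 CPM ipsilaterally. It was at 28.28, 29.12, 30.24, 24.35 and 23.52 CPM contralaterally, again with no overlap. The difference was 1.00 ± 0.11 (SE, adjusted p = 0.00165, edgeR).

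RAD50, the SMC-like subunit of the complex that binds broken DNA ends, was at 108.6, 110.7, 106.8, 102.2 and 107.9 CPM ipsilaterally and at 63.61, 70.30, 70.52, 60.97 and 58.82 CPM contralaterally. The ipsilateral values varied little around their mean of 107.2 CPM. The log2 difference was 0.73 ± 0.07 (SE, adjusted p = 0.00121, edgeR). SMC5 was higher by 0.73 ± 0.10 (SE), and SMC2, SMC3 and SMC6 by 0.63, 0.72 and 0.56. ATRX, a chromatin remodeller linked to repeat sequences, ranged from 123.1 to 158.1 against 88.44 to 103.0 CPM (0.52 ± 0.08, SE).

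The non-SMC subunits of condensin did not pass. NCAPD2, NCAPD3, NCAPG2 and NCAPH had differences of 0.08, 0.01, -0.02 and -0.08, and NCAPG of 0.34. RAD21, the cohesin subunit that closes the ring, had 0.02. Thus different subunits of the same complexes had different estimates.

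Cell division genes as a list gave fewer calls than the splicing, centrosome and chromosome lists. Of 39 tested, 3 were higher and 0 lower, beside 3.29% and 0.68% of all genes, with a median of 0.17. With the tag block 1 was higher, beside 1.96% of all genes. Leaving out 1 library gave 1 to 3, beside 1.39 to 3.48% of all genes. KIF20B, a kinesin of the dividing cell, was at 17.09, 16.18, 17.34, 15.12 and 17.35 CPM ipsilaterally and at 9.729, 8.550, 7.526, 6.002 and 8.240 CPM contralaterally. The ranges were far apart and the difference was 1.05 ± 0.13 (SE, adjusted p = 0.00233, edgeR).

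CENPE, the kinesin of the kinetochore, was at 2.784, 2.056, 4.050, 1.561 and 2.692 CPM against 1.497, 0.8036, 0.6968, 0.9718 and 1.169 CPM. Ipsilateral 6-203 lay only just above contralateral 4-1314. The estimate was 1.35 ± 0.30 (SE), and the call (adjusted p = 0.0343, edgeR) was lost in 7 of 10 fits without a library. NUF2, also of the kinetochore, was higher by 0.73 ± 0.17 (SE) and lost its call in 8 of them. MKI67 and CDK1, which mark dividing cells, had differences of 0.01 and 0.20, and PCNA and PLK1 of 0.08 and 0.09. None of these 4 was called. MCM2, MCM3, MCM4 and MCM5, parts of the DNA replication helicase, had differences between -0.30 and -0.22 and were not called.

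Chromatin genes were higher in 11 of 30 cases and lower in 0, beside 3.29% and 0.68% of all genes tested. Their median was 0.30 (0.13 with depth as a covariate, when 0 passed). DESeq2 called 17 higher and 4 lower, beside 7.33% and 4.26% of the genes it tested. ARID4B, a subunit of histone deacetylase complexes, ranged from 136.2 to 162.8 CPM ipsilaterally and from 90.53 to 98.45 CPM contralaterally (0.67 ± 0.07, SE, adjusted p = 0.00151, edgeR). JMJD1C, a relative of histone demethylases, was at 185.1, 147.5, 183.3, 159.8 and 171.7 against 119.7, 105.3, 102.3, 90.07 and 101.5 CPM. The difference was 0.71 ± 0.09 (SE), with all ipsilateral libraries above the contralateral ones. The bromodomain proteins BAZ2B and BRWD3 were higher by 0.71 ± 0.09 and 0.72 ± 0.09 (SE). KMT2D, CREBBP, ARID1A and SMARCA4, large enzymes and subunits of the coactivator complexes, had differences of -0.30, -0.23, -0.20 and -0.16 and were not called.

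Outside the lists, ESF1, a nucleolar protein of ribosomal RNA processing, was at 80.10, 71.98, 62.46, 60.78 and 59.84 CPM ipsilaterally and at 30.50, 42.11, 37.52, 32.76 and 30.11 CPM contralaterally. The horns did not overlap (0.95 ± 0.12, SE, adjusted p = 0.00233, edgeR). CCDC18, a coiled-coil protein, ranged from 18.47 to 31.2 against 9.232 to 17.53 CPM. Its call (0.99 ± 0.21, SE, adjusted p = 0.0259, edgeR) was lost in 5 of 10 fits without a library. The uncharacterised locus LOC104976155 was at 3.013 to 4.652 against 1.125 to 1.996 CPM (1.32 ± 0.23, SE), and its adjusted p with the tag block was 0.0576.

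**Figure D4:**
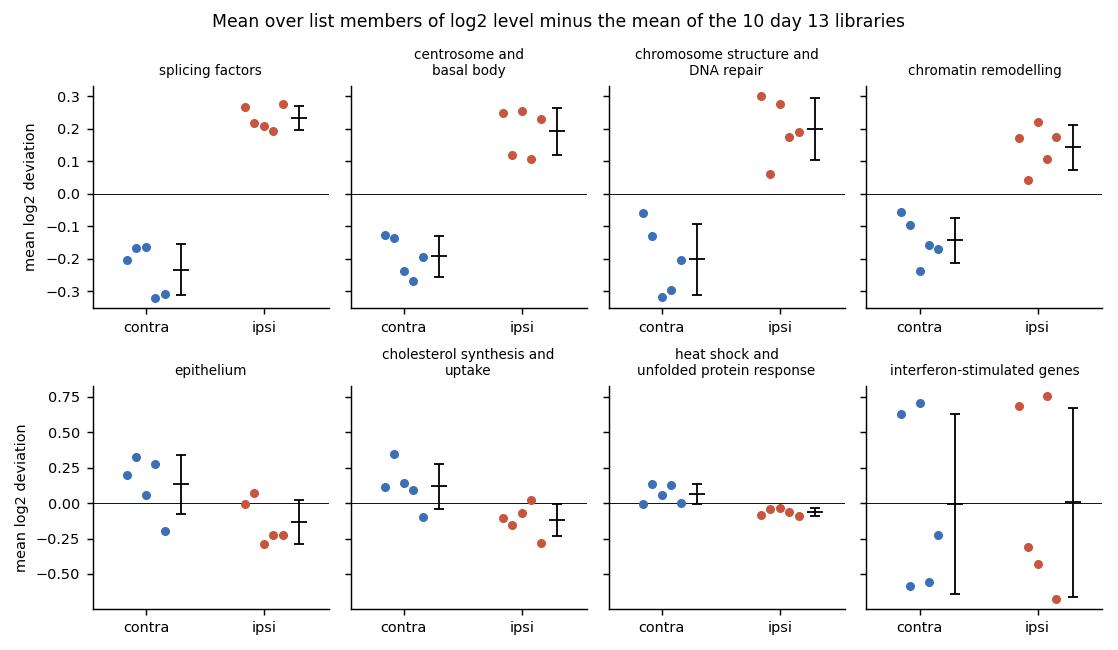
Mean log2 deviation of a list's members from the mean of the 10 libraries, 1 point a library, contralateral in blue and ipsilateral in red, with mean and SD (n = 5); the rows have their own scales. The 4 lists of the upper row separate the horns, while the epithelial, cholesterol and interferon lists below overlap.

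Among the genes lower in the ipsilateral horn was a regulator of sterol synthesis. SREBF2 encodes the transcription factor that switches on sterol genes when the cell lacks cholesterol. It was at 171.5, 180.6, 160.1, 187.6 and 161.3 CPM ipsilaterally and at 211.7, 266.0, 248.2, 234.5 and 202.5 CPM contralaterally. Every ipsilateral library lay below every contralateral one. The log2 difference was -0.43 ± 0.09 (SE, adjusted p = 0.0227, edgeR), and the call was lost in 5 of 10 fits without a library. It passed with the tag block.

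Of the 26 sterol genes tested, 2 were lower and 0 were higher, beside 0.68% and 3.29% of all genes. Their estimates were below 0 in 23 cases, beside 9869 of 18683 for all genes. DESeq2 called 5 lower, beside 4.26% of all genes it tested, and 0 were lower without each of ipsilateral 4-1314, 5-167 and 8-275 and contralateral 6-203. The list's median was -0.29, and its mean deviations overlapped between the horns.

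Epithelial markers gave 2 lower calls of 25, beside 0.68% of all genes (0 with the tag block, beside 0.118%). Of their estimates 23 were below 0, beside 9869 of 18683 for all genes, and the median was -0.30. KRT19, a keratin of simple epithelium, was at 45.88, 45.09, 42.06, 44.28 and 45.73 CPM ipsilaterally and at 71.22, 56.99, 57.53, 82.58 and 51.86 CPM contralaterally. The ipsilateral libraries were alike, while the contralateral ones spread widely above them. The difference was -0.52 ± 0.12 (SE, adjusted p = 0.0370, edgeR), with the call lost in 8 of 10 fits without a library and an adjusted p of 0.0788 with the tag block.

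SLC9A3R1, a scaffold beneath the apical membrane, was at 32.23, 30.84, 30.66, 30.48 and 30.23 against 42.25, 43.55, 41.36, 47.88 and 35.50 CPM. Its difference of -0.45 ± 0.08 (SE, adjusted p = 0.0145, edgeR) passed without each library, and the adjusted p was 0.0524 with the tag block. The summed level of the epithelial list ranged from 2804 to 3769 CPM ipsilaterally and from 2958 to 4457 CPM contralaterally, with overlap. The part of epithelial content in the lower sterol and epithelial genes was not tested. PCDH1, a cell adhesion protein, ranged from 45.02 to 62.98 against 64.74 to 77.49 CPM (-0.51 ± 0.10, SE, adjusted p = 0.0208, edgeR), with the call lost in 5 fits without a library. SPINT1, an inhibitor of epithelial surface proteases, had -0.36 ± 0.12 (SE) and was not called.

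PSAP and CTSZ were among the genes of secreted and lysosomal proteins that were called lower. PSAP, the precursor of lysosomal saposins, was at 481.2, 518.6, 488.9, 568.3 and 464.5 CPM ipsilaterally and at 782.1, 586.2, 744.4, 759.9 and 650.3 CPM contralaterally. The gap between the highest ipsilateral library and contralateral 5-140 was narrow. The difference was -0.48 ± 0.10 (SE, adjusted p = 0.0216, edgeR), lost in 5 of 10 fits without a library, and the adjusted p was 0.0539 with the tag block. Of 31 tested components of uterine fluid, 1 was lower and 0 were higher, beside 0.68% and 3.29% of all genes, with a median of -0.32. Without contralateral 5-140 the count was 3, beside 155 of 18891 genes called lower. The called gene was CTSZ, a lysosomal protease that is also secreted, at -0.39 ± 0.09 (SE), with overlapping ranges and a call lost in 8 of 10 fits without a library.

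CD74, the chaperone of MHC class II, was the 1 called gene of the 16 tested macrophage and dendritic cell markers, beside 0.68% of all genes called lower. It ranged from 290.1 to 375.3 CPM ipsilaterally and from 378.6 to 514.7 CPM contralaterally (-0.46 ± 0.11, SE, adjusted p = 0.0442, edgeR). This call was lost in 8 of 10 fits without a library. Of the list, 15 estimates were below 0, beside 9869 of 18683 for all genes. The list's summed level was 440 to 626 CPM against 595 to 815 CPM. BCR, a signalling protein, had a difference of -0.45 ± 0.08 (SE, adjusted p = 0.0119, edgeR) that passed in all 10 fits without a library, with an adjusted p of 0.0514 under the tag block. TOB2, which restrains cell division, RNPEPL1, an aminopeptidase relative, and FAM53B were lower, at -0.47 ± 0.10, -0.47 ± 0.09 and -0.55 ± 0.12 (SE). Their calls were lost in 7, 1 and 8 fits without a library.

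Genes of the hormone axes were mostly not called. PGR, the progesterone receptor, was at 3.204, 3.165, 5.258, 3.642 and 4.805 CPM ipsilaterally and at 2.682, 4.018, 3.986, 4.802 and 2.794 CPM contralaterally. The libraries of the horns were interleaved, and the difference was 0.13 ± 0.23 (SE, adjusted p = 0.825, edgeR). ESR1, the estrogen receptor, ranged from 8.506 to 14.69 against 9.003 to 16.06 CPM (-0.27 ± 0.20, SE, adjusted p = 0.519). FKBP4, a co-chaperone of steroid receptors, was the 1 call of 28 in the steroid list, beside 0.68% of all genes called lower. It was at 221.8, 229.9, 221.0, 230.3 and 221.7 against 276.3, 267.1, 266.8, 292.7 and 269.7 CPM, tight in both horns, a difference of -0.29 ± 0.06 (SE, adjusted p = 0.0209, edgeR) that was lost in 3 fits without a library and with the tag block (adjusted p = 0.0645).

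OXTR, the oxytocin receptor, varied several-fold among libraries of the same horn. It was at 1.068, 1.012, 8.136, 5.111 and 2.045 CPM ipsilaterally and at 1.965, 7.811, 2.620, 1.886 and 2.566 CPM contralaterally. The 2 ranges overlapped (0.05 ± 0.62, SE, adjusted p = 0.980, edgeR). Of 21 genes of prostaglandin synthesis and action, 18 of the insulin-like growth factor system and 26 nutrient transporters, 0 passed in each list. Of all genes tested 3.97% passed, so a count of 0 in lists this short says little about these genes. The medians of the 3 lists were -0.11, -0.21 and -0.20.

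Genes that interferon induces spread widely among the libraries of each horn. ISG15 was at 51.91, 12.53, 12.19, 61.54 and 8.417 CPM ipsilaterally and at 45.09, 10.19, 64.52, 9.432 and 16.51 CPM contralaterally. The high libraries were 4-1314 and 6-203 in the ipsilateral horn, and 4-1314 and 5-167 in the contralateral horn. The same 4 libraries were high for MX1, at 432.6, 541.9, 488.6 and 577.4 CPM, while the other 6 were between 95.49 and 221.4 CPM. The horn differences were 0.01 ± 0.69 for ISG15 and -0.12 ± 0.55 for MX1 (SE, adjusted p = 0.997 and 0.944, edgeR). Of 31 genes of this list, 0 passed, beside 3.97% of all genes, and the median was 0.01. Only tag 4-1314 was high in both horns, so for 6-203 and 5-167 the libraries that share a tag were unlike in these genes; why was not tested.

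The WNT list had 1 call in each direction among 41 tested, beside 3.29% of all genes higher and 0.68% lower, with a median of -0.14. APC, which marks beta-catenin for destruction, ranged from 142.6 to 186.7 against 81.89 to 137.2 CPM (0.58 ± 0.13, SE), and LRP5, a WNT co-receptor, was at -0.35 ± 0.08 (SE). Each was lost in 8 of 10 fits without a library. LRP6, the related co-receptor, was at 325.5, 225.8, 300.6, 282.2 and 247.1 against 244.0, 192.7, 215.0, 156.7 and 187.7 CPM. Its ranges overlapped through contralateral 4-1314, and its difference of 0.47 ± 0.13 (SE) was not called (adjusted p = 0.0750, edgeR).

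Matrix, folding and ribosomal genes had few or no calls. Of 41 extracellular matrix genes and 33 genes of proteoglycan and sugar chain synthesis, 0 passed, beside 3.97% of all genes. In each list 2 were called lower without contralateral 5-140, beside 155 of 18891 genes. COL3A1, a fibrillar collagen, had -0.23 ± 0.24 (SE) and CHPF, a chondroitin-polymerising enzyme, -0.47 ± 0.19 (SE). PDIA6, a folding enzyme, was the 1 call among 29 heat shock and unfolded protein genes, beside 0.68% of all genes called lower. It stood at -0.24 ± 0.06 (SE), and the call was lost in all 10 fits without a library. DESeq2 called 6 of these 29 lower, beside 4.26% of all genes it tested. Its list lay between -0.09 and -0.03 ipsilaterally and between -0.01 and 0.14 contralaterally in mean log2 deviation. Of 42 ribosomal proteins, 0 passed, beside 3.97% of all genes, with a median of -0.13. An estimate below 0 was seen for 40 of them, beside 9869 of 18683 for all genes. DESeq2 called 10 lower, beside the same 4.26%. Of 23 immediate early genes, which respond within minutes to stimulation or handling, 0 passed, beside 3.97% of all genes. Their median was -0.15.

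The remaining cell type markers were not called, except for CALD1, an actin-binding protein of smooth muscle. It was 1 of 16 smooth muscle markers tested, beside 3.29% of all genes called higher. CALD1 was at 0.42 ± 0.10 (SE), with overlapping ranges and a call lost in 8 of 10 fits without a library. Summed smooth muscle markers ranged from 1036 to 1853 CPM ipsilaterally and from 1082 to 1573 CPM contralaterally. Of 18 stromal, 16 blood vessel, 7 lymphatic, 19 T and NK cell, 9 B cell, 6 neutrophil and mast cell, 12 nerve and 8 mesothelium and ovary markers tested, 0 passed.

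The same contrast was estimated on days 5, 7 and 16 in the fit of all 40 libraries. The estimates of those days come from 30 libraries that the day 13 calls did not use. The spread of each gene was shared with the day 13 libraries, so calls on those days are not independent of the day 13 calls. Of the 615 genes higher on day 13, 613 (99.7%) had an estimate above 0 on day 5, 615 on day 7 and 615 on day 16, beside 46.2%, 46.8% and 49.2% of all genes tested. Their medians were 0.59, 0.59 and 0.52. Of the 615, 562 were called higher on day 5 and 562 on day 7, where 13.1% and 8.13% of the 18683 genes were, and 516 on day 16, where 4.19% were. Without ipsilateral 5-137 of day 16, a library that stands apart, the day 16 figure was 391, beside 2.52%, and the median 0.47. Of the 127 lower genes, 124 (97.6%), 127 and 126 (99.2%) were below 0 on days 5, 7 and 16, beside 53.8%, 53.2% and 50.8% of all genes tested. Of these, 94, 83 and 36 were called lower, where 11.3%, 4.58% and 0.723% of all genes were (27 on day 16 without 5-137, beside 0.583%).

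Single genes followed the same pattern with their own sizes. The difference of PPIG was 0.82, 1.02, 1.07 and 1.00 on days 5, 7, 13 and 16 in the fit of all 40 libraries, and that of CEP290 was 0.76, 0.91, 1.02 and 0.90. SMC4 had 0.48, 0.81, 1.01 and 0.92, and LRP6 had 1.08, 0.59, 0.48 and 0.45. SREBF2 had -0.55, -0.32, -0.42 and -0.24. A test of the change itself (day 13 minus another day, edgeR's quasi-likelihood test over 20356 genes) passed 0 genes against day 5, day 7 and day 16, with 1027, 123 and 105 genes at an unadjusted p below 0.05. Limma-voom and the fit with tags as a block also passed 0. A p that misses the threshold does not show that the horn difference was alike on the 4 days.

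**Figure D5:**
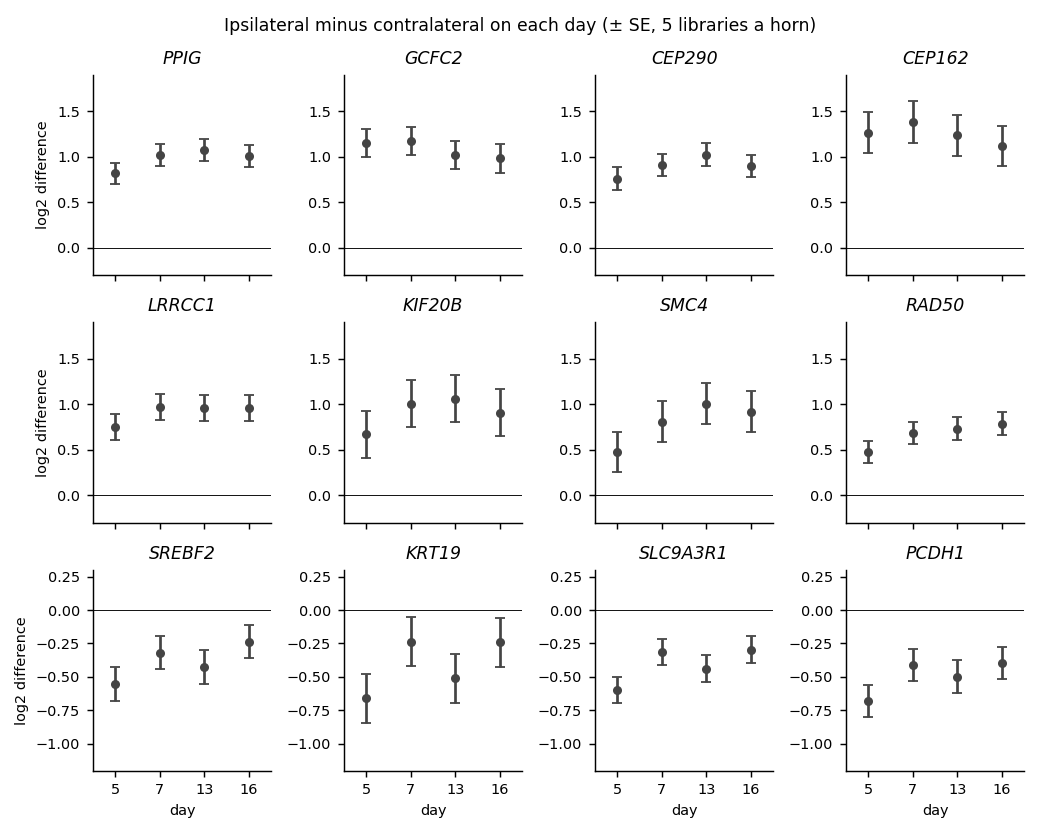
Log2 difference between horns on days 5, 7, 13 and 16 for 12 genes, from the fit of all 40 libraries, with the standard error (5 libraries a horn and day). The first 8 genes lie above 0 and the last 4 below 0 on each day.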

How the data were processed

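Polyadenylated RNA was sequenced after a stranded library kit, per the labels' protocols, and FastQC, HISAT2, featureCounts and the build UMD3.1 are named in the submitters' processing notes; versions and the strand setting of the counting are not given in the sources used here. The authors deposited 1 table of raw read counts per gene (32671 genes, 40 libraries); its mitochondrial row entered neither library sizes nor tests (0.263 to 0.578% of reads on day 13). Day 13 libraries were fitted with edgeR 4.0.16 (R 4.3.3): TMM scaling, filterByExpr, quasi-likelihood F-test, no block, Benjamini-Hochberg over 18683 genes, threshold 0.05. SE was the log2 difference divided by the square root of F. CPM were TMM-scaled. Differences between days were tested in all 40 libraries. Alternatives were DESeq2 1.42.0, limma-voom 3.58.1, other scaling, filter and prior, the tag block, 2 covariates and each library left out.

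The 2 horns of a heifer share an animal, but the labels do not say that a tag names the heifer. Deviations of same-tag libraries from their group means correlated at -0.34 to 0.52, above 0.1 in 1 of 5 tags. Each ipsilateral library correlated best with a different contralateral library (0.29 to 0.72), in 4 of 5 cases 1 of another tag, and these best matches carry consecutive sample numbers in the labels. The labels do not say that either tags or those numbers pair the horns, so no other pairing was fitted, the tag block may join horns of different heifers, and the unblocked test leaves shared animals out of the model. P-values measure the spread between these libraries.

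The comparison and gene lists were chosen with earlier results of these data known. Named genes were called with separate ranges and a mean log2 CPM of at least 1 (15 highest, 15 lowest), up to 4 called members a list (2 most abundant where none was called), and fixed names; other list members were picked after their values were seen, and some called genes are not reported here. On simulated counts (18447 genes, 50 changed a size) the test found 22%, 66%, 98% and 98% of genes changed 1.5, 2, 3 and 4-fold. Gene names are those of the table, and overlapping or antisense genes were not told apart.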

Additional observations from a re-analysis of the deposited data

Results flagged for a closer look

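Among 126 groups of 5 libraries examined for a library far from the other 4 (a gap to the next library that is a large part of the group's range, past Dixon's critical value, which chance gives in about 1 in 20 groups), 5 stood out. CEP135 was highest in ipsilateral 4-1314, at 19.76 CPM, with the next library at 16.2 CPM. ROCK1 was also highest in ipsilateral 4-1314, at 173.9 CPM beside 146.6 CPM. CCDC18 was highest in contralateral 4-1314, at 17.53 CPM beside 11.28 CPM. LRP5 was highest in ipsilateral 5-140, at 75.18 CPM beside 64.41 CPM. OXTR was highest in contralateral 5-140, at 7.811 CPM beside 2.62 CPM.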

How the results depend on the processing

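Against 742 genes (615 higher, 127 lower), DESeq2 called 1827 (1156 and 671), a split of 63.3% higher beside 82.9%, and the test without a filter on low counts called 49 lower. The tag as a replicate block gave 388 (366 and 22); same-tag libraries deviated together in 1 of 5 tags, and 1 of 5 ipsilateral libraries correlated best with its own tag. With log2 depth or the small-RNA share as a covariate 0 passed (0 higher, 0 lower). All 40 libraries without a block gave 1165 (921 and 244), fewer than 1.5 times as many higher. Leaving out each library gave 272 to 812 genes, 263 to 657 higher and 9 to 155 lower. Limma-voom, another scaling and a robust prior stayed within 1.5 times for all 3 counts. Of the 742, 243, all of them higher, passed in every fit but those with a covariate and the blocked fit of all 40 libraries. The cause of these shifts was not tested.

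Leaving out a library, the horn difference ranged from -5.68 to -4.37 M reads, 22.1 to 29.6 microRNA and 2.55 to 4.48 tRNA reads in every 1000000 reads, 0.107 to 0.186 percentage points of mitochondrial reads, -0.37 to -0.072 points for the 10 most abundant genes and -136.7 to 8.6 genes detected. The microRNA difference had an adjusted p of 0.0952 (exact permutation test) in 5 of these 10 fits.

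Signs turned only for genes that were not called. PGR had -0.024 with depth and -0.29 with the small-RNA share as a covariate. OXTR had -0.18 with limma-voom, -0.13 with the tag block, -0.71 and -2.96 with the covariates, -0.080 with all libraries and the block, and -0.52 to 0.63 without a library. ISG15 had -0.039 with limma-voom, -0.067 with the tag block, -0.058 with all libraries and the block, and -0.47 to 0.54 without a library. MX1 had 0.41 and 0.46 with the covariates, and -0.50 to 0.25 without a library. COL3A1 ranged from -0.36 to 0.026 without a library.

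With 5 libraries a horn, changes of 1.5-fold were found in 22% of simulated cases, so a gene of that size that was not called may still differ. The simulation called 144 genes in all, beside 742 here. Its cut on the unadjusted p was therefore stricter, and the share found may be too low for these data.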

Other observations

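Further gene groups were put together after their values had been seen, so their counts describe these libraries and support nothing. Golgins and related tethers, long coiled-coil proteins that hold vesicles at the Golgi and endosomes, were higher ipsilaterally in 6 of 12 cases and lower in 0, beside 3.29% and 0.68% of all genes, with a median of 0.47. GOLGA4 was at 173.8, 145.7, 164.1, 154.0 and 155.6 CPM ipsilaterally and at 96.48, 99.52, 94.79, 83.23 and 80.15 CPM contralaterally, without overlap (0.80 ± 0.08, SE). TMF1 and EEA1, the tether of early endosomes, were higher by 0.83 ± 0.09 and 0.84 ± 0.12 (SE). Of 14 intraflagellar transport genes, 2 were higher and 0 lower, beside 3.29% and 0.68% of all genes. The median of this group was 0.09, and 5 estimates were below 0. The 2 were IFT74 and IFT81, higher by 0.84 and 0.64 on the log2 scale. Both passed without each library, but IFT81 did not pass in all of the other tests and the tag block.

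Lysosomal proteins were lower ipsilaterally in 4 of 29 cases (LAMP1, PSAP, CTSZ and TPP1) and higher in 0, beside the same 0.68% and 3.29%. Of their estimates 27 were below 0, beside 9869 of 18683 for all genes. LAMP1, a protein of the lysosomal membrane, ranged from 250.2 to 297.9 against 320.2 to 388.2 CPM (-0.38 ± 0.08, SE).

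In the group of focal adhesion and actin genes 8 of 27 were lower and 3 higher, beside 0.68% and 3.29% of all genes. The lower ones included MYH9, a non-muscle myosin (606.1 to 762.5 against 794.8 to 1011 CPM, -0.42 ± 0.09, SE), and TLN1, which links integrins to actin (-0.40 ± 0.10, SE). The higher ones were RDX and the kinases ROCK1 and ROCK2, which activate myosin, at 0.76 ± 0.09 and 0.86 ± 0.15 (SE). ROCK2 was at 80.36, 56.35, 92.87, 72.56 and 91.26 CPM ipsilaterally and at 51.89, 47.93, 35.15, 42.79 and 38.78 CPM contralaterally. MYH9 and TLN1 each lost their call in 7 of the 10 fits without a library; ROCK1 and ROCK2 in none of them. With the tag block the adjusted p was 0.0837 for MYH9, 0.0945 for TLN1 and 0.0628 for ROCK2 (edgeR), so these 3 calls were lost.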
